A study of Mus musculus with 6 samples.

Results

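The genes described here are 10 genes of MHC class II antigen presentation and T cell costimulation in mouse macrophages, phagocytes taken from the peritoneal cavity. They were chosen by symbol from a count table of 24454 gene symbols: Cd74, H2-Aa, H2-Ab1, H2-Eb1, H2-DMa, Ciita, Cd40, Cd80, Cd86 and Cd274. Of the 10, 7 have 1 transcript row in the table, 3 (Cd74, Ciita and Cd40) have several rows that were summed, and 8 passed the filter on low counts. PolyA RNA of cultured cells from wild-type male C57BL6/J mice, aged 6 to 8 weeks, was sequenced in 6 libraries, 2 per group. The SGA360+LPS group received the aryl hydrocarbon receptor ligand SGA360 at 10 µM for 1 h, followed by 10 ng/ml of the bacterial endotoxin LPS for 4 h. The LPS group received the same LPS treatment without SGA360, and the vehicle group received vehicle for 5 h. The labels name no vehicle pretreatment for the LPS group, and do not state whether replicates were different animals or cultures. The p-values therefore reflect the spread among these libraries alone, which could be technical.

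MHC class II molecules are pairs of an alpha and a beta chain that present peptides from ingested proteins to CD4+ T cells. The chains are assembled on the invariant chain Cd74, lysosomal proteases cleave it, and the H2-DM chaperone exchanges its remnant for a peptide; Ciita is the coactivator that assembles on class II promoters. A T cell also reads costimulatory signals from the presenting cell: Cd80 and Cd86 bind CD28 and CTLA-4, Cd40 receives CD40 ligand, and Cd274 (PD-L1) binds the inhibitory receptor PD-1.

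Promoters are shown for the 2 class II chain genes with a window and for Cd274, the member with the largest difference between groups. RefSeq windows (GRCm38.p6) run from 250 bases before to 50 bases after the RefSeq start of a gene, 5′ to 3′ on the gene's strand, and 5 of the 10 members had one. Capitals in the class II promoters mark the X box core (CTNGCAAC), the X2 box (TGACGTCA) and the Y box (CTGATTGG), elements bound by the RFX, CREB and NF-Y factors, and in Cd274 an interferon regulatory factor (IRF) element (GAAANNGAA) read on the opposite strand. The windows lie at chr17:34287774-34288073 (minus strand) for H2-Aa, chr17:34305617-34305916 (plus strand) for H2-Eb1 and chr19:29367188-29367487 (plus strand) for Cd274.
H2-Aa: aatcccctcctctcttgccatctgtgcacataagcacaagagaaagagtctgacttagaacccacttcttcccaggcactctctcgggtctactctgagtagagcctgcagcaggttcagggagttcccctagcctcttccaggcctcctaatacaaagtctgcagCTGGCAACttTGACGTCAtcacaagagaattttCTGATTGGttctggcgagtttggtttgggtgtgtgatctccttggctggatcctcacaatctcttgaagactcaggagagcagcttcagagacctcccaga
H2-Eb1: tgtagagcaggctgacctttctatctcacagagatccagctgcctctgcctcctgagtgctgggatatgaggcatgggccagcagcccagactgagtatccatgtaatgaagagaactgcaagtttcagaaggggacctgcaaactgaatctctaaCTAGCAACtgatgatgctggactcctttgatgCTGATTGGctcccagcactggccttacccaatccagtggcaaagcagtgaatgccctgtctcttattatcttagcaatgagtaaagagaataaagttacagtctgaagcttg
Cd274: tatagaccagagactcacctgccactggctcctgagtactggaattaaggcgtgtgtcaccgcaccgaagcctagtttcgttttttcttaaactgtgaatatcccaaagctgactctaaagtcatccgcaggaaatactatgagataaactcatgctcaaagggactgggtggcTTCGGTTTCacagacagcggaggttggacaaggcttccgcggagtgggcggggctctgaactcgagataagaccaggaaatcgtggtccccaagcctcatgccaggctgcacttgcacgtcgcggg
For H2-Aa the RefSeq start lies 52 bases upstream of the start of the counted transcript, and for the other members with a window a RefSeq start matches it. In H2-Aa the X box core began 84 bases and the Y box 51 bases before the RefSeq start, 33 bases apart, with the X2 box letters between them at 74 bases. In H2-Eb1 they began 94 and 62 bases before the start, 32 bases apart, and the X2 letters had no match. Searched on both strands over 32851 windows of 27025 symbols, the X box core stood in 3.42% of windows, the X2 box in 1.79%, the Y box, which overlaps the CCAAT core ATTGG, in 4.10%, and the IRF element in 8.56%. An X box core within 60 bases before a Y box on the gene's strand stood in 7 of the 32851 windows (0.0213%). The IRF letters in Cd274 began 76 bases before the start; the window of Cd80 and the 2 windows of H2-DMa, at the counted start and 2686 bases into the gene, held none of the X box, X2 box, Y box or IRF letters. The letters were picked with known class II promoters in view, and a match describes the sequence and is not a measured binding site.

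Library totals were 8045546 and 9158715 counts in SGA360+LPS, 7726973 and 9529817 in LPS, and 8689452 and 8874130 in vehicle. Vehicle replicate 1 stood apart: it detected 10001 symbols where the other 5 libraries detected 12282 to 12643, and ribosomal RNA (Rn45s) made up 4.92% of it and 0.220 to 0.684% of the others. Comparisons with vehicle were therefore also computed without it. CPM below are counts brought to 1 library size with TMM factors, and fold changes are log2 values from edgeR's quasi-likelihood test with adjusted p-values over the 9389 genes tested. In bulk RNA, fewer cells of a type and less RNA per cell cannot be told apart.

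Markers of macrophages were abundant and had similar sums in all groups: 9 of the 10 markers in the table had counts, and their summed level was 22520 to 25851 CPM in SGA360+LPS, 23344 to 26937 CPM in LPS and 21702 to 23743 CPM in vehicle. Itgam, which has several rows, was at 0. B cells express class II constitutively, and the B cell markers (10 of 12 with a count, Cd79b and Ebf1 at 0) summed to 46.7 to 47.8 CPM in SGA360+LPS, 49.3 to 51.5 CPM in LPS and 46.9 to 49.5 CPM in vehicle. Of the 7 B cell markers tested, 0 passed the edgeR test in LPS against vehicle. Dendritic cell markers (9 of 12 with a count, Clec9a, Ccr7 and Siglech at 0) summed to 1077 to 1160 CPM in SGA360+LPS, 1048 to 1049 CPM in LPS and 665 to 691 CPM in vehicle. Small peritoneal macrophage markers (6 of 8 with a count, Clec10a and Folr2 at 0) summed to 167 to 180 CPM in SGA360+LPS, 172 to 193 CPM in LPS and 324 to 329 CPM in vehicle. The higher dendritic cell sum came with calls for Bst2, Fscn1 and Itgax, while the dendritic lineage genes Flt3, Zbtb46 and Batf3 did not pass the test. Of these, Zbtb46 had 7.75 and 4.37 CPM in SGA360+LPS, 6.25 and 4.92 CPM in LPS and 1.90 and 3.54 CPM in vehicle (log2 in LPS against vehicle 1.02, edgeR adjusted p = 0.0965), and Flt3 had a log2 fold change of 0.00. The dendritic cell sum was thus higher and the small peritoneal macrophage sum lower in the LPS-treated libraries than in vehicle. Of the genes described below, Cd80, Cd86 and Cd274 rose with LPS, whereas most class II genes did not pass the test. Markers of mesothelial cells and fibroblasts had counts for 13 of 14, with Pdgfrb at 0. Their sum was 5093 to 5546 CPM in SGA360+LPS, 4764 to 5070 CPM in LPS and 5185 to 5859 CPM in vehicle. Of 12 tested, 0 rose and 4 fell in LPS against vehicle, where 19.4% of all genes rose and 17.0% fell. RNA of such cells was thus present in every library. The part of any of these cell types in the values below was not tested.

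In LPS against vehicle, 4 of the 8 members tested rose (Cd274, Cd80, Cd86 and H2-Ab1), where 19.4% of all genes tested did, and 1 fell (H2-DMa), where 17.0% of all genes did. The median log2 fold change of the 8 was 0.69, beside -0.01 over all genes. H2-Aa, H2-Eb1 and Cd74 did not pass the test. Without vehicle replicate 1 the counts were again 4 higher and 1 lower of 8.

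**Figure D1:**
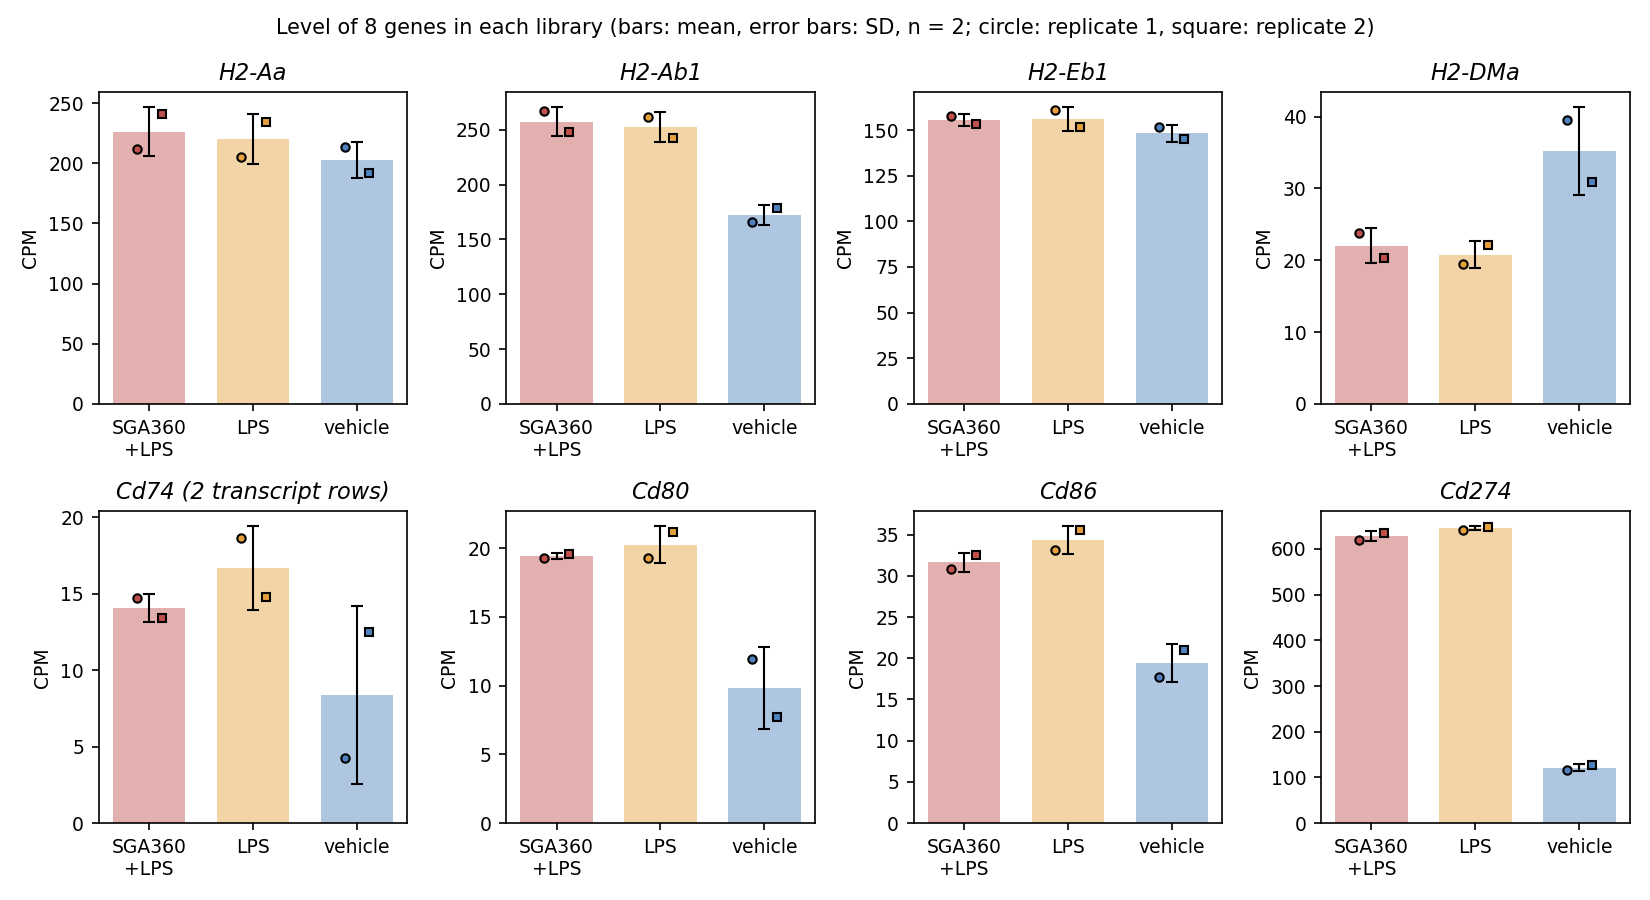
Level in CPM (vertical axes, from 0, each panel on its own scale) of the 8 tested genes in SGA360+LPS, LPS and vehicle libraries; bars are means, error bars SD of 2 libraries, circles replicate 1 and squares replicate 2. Cd274 lies at 620 to 648 CPM in the 4 LPS-treated libraries and at 115 and 127 CPM in vehicle, whereas H2-Aa and H2-Eb1 are at similar levels in all 6.

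The class II chain genes lie together on chromosome 17, and they did not move together. H2-Ab1, the beta chain of I-A (17:34263227-34269418, plus strand, mm10), had 267 and 248 CPM in SGA360+LPS, 262 and 243 CPM in LPS and 165 and 179 CPM in vehicle libraries. Every LPS-treated library lay above both vehicle libraries. Its mean was 252 ± 13.4 CPM in LPS and 172 ± 9.32 CPM in vehicle (SD, n = 2 each), a 1.47-fold rise (log2 0.55, SE 0.08, edgeR adjusted p = 0.000324).

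H2-Aa encodes the alpha chain that pairs with it (17:34282751-34287771, minus strand). It had 212 and 241 CPM in SGA360+LPS, 205 and 235 CPM in LPS and 213 and 192 CPM in vehicle libraries. The groups overlapped, and the log2 fold change in LPS against vehicle was 0.12 with a 95% interval of -0.09 to 0.33 (edgeR adjusted p = 0.36). H2-Eb1, the beta chain of I-E (17:34305867-34316674, plus strand), had 158 and 153 CPM in SGA360+LPS, 161 and 152 CPM in LPS and 152 and 145 CPM in vehicle libraries. These differed little between groups: the log2 fold change in LPS against vehicle was 0.08, with an interval of -0.09 to 0.24 (edgeR adjusted p = 0.477).

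The partner of H2-Eb1, H2-Ea-ps, is annotated as a polymorphic pseudogene (17:34342212-34344645, minus strand), and C57BL/6 mice are known to make no I-E alpha chain. It has 1 transcript row and had 0 counts in all 6 libraries, which allows a level of up to 0.315 to 0.388 CPM per library (3 counts, counting error only). The beta chain transcript was thus measured at 145 to 161 CPM beside an alpha chain at 0.

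Ratios of counts within a library do not depend on the scaling. H2-Ab1 over H2-Eb1 was 1.69 and 1.62 in SGA360+LPS, 1.63 and 1.60 in LPS and 1.09 and 1.23 in vehicle libraries. The LPS-treated and vehicle libraries did not overlap in this ratio. H2-Ab1 over H2-Aa, the chains of the same heterodimer, was 1.26 and 1.03 in SGA360+LPS, 1.27 and 1.04 in LPS and 0.777 and 0.931 in vehicle libraries, again without overlap between LPS-treated and vehicle libraries. Per kilobase of exon, H2-Aa and H2-Ab1 stood close in LPS, at 205 ± 19.2 and 210 ± 11.2 CPM per kb, a gap within their SD (n = 2 each). In vehicle, H2-Aa was at 189 ± 13.9 CPM per kb and H2-Ab1 at 144 ± 7.77 CPM per kb (n = 2 each).

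**Figure D2:**
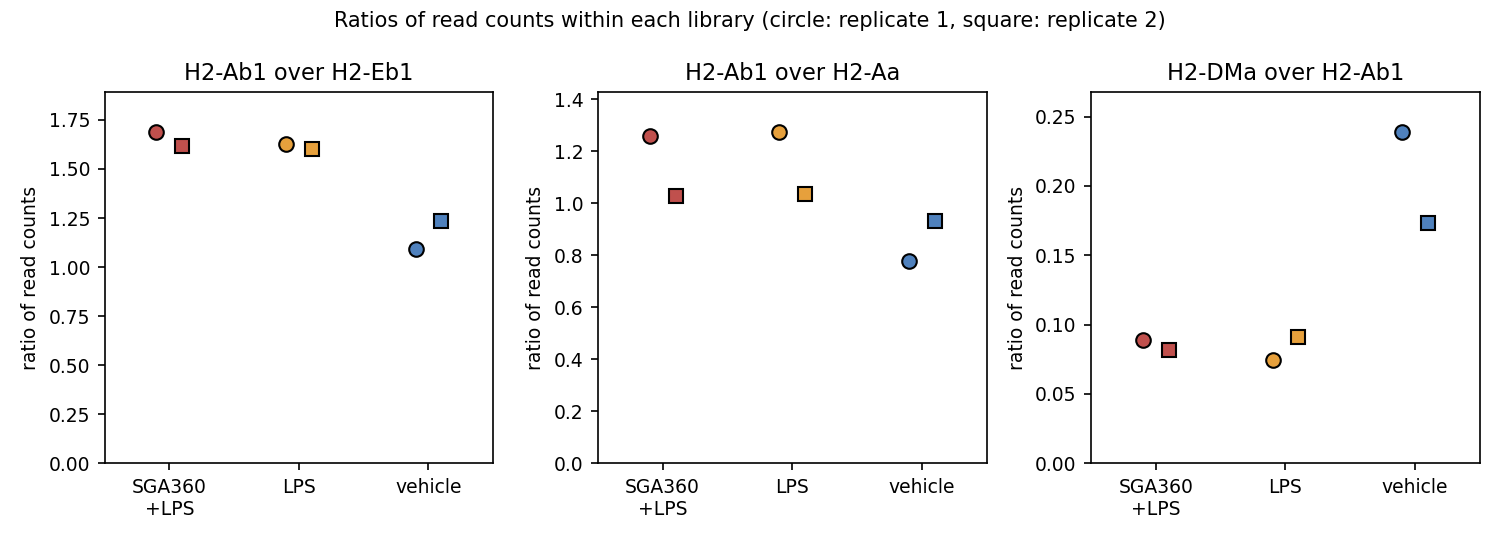
Ratios of read counts within each library (vertical axes, from 0) for 3 pairs of class II genes in SGA360+LPS, LPS and vehicle; circles are replicate 1 and squares replicate 2. H2-Ab1 over H2-Eb1 is 1.60 to 1.69 in the LPS-treated libraries and 1.09 and 1.23 in vehicle, and H2-DMa over H2-Ab1 is 0.0742 to 0.0910 in the LPS-treated libraries and 0.239 and 0.173 in vehicle.

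H2-DMa, the alpha chain of the peptide-exchange chaperone (17:34122832-34139101, plus strand), was the tested member that fell. It had 23.7 and 20.3 CPM in SGA360+LPS, 19.4 and 22.1 CPM in LPS and 39.6 and 30.9 CPM in vehicle libraries, with both vehicle libraries above all 4 others. The log2 fold change in LPS against vehicle was -0.76 (SE 0.17, edgeR adjusted p = 0.00569). Without LPS replicate 1 it did not pass (log2 -0.65, edgeR adjusted p = 0.0665). H2-DMa over H2-Ab1 was 0.0890 and 0.0818 in SGA360+LPS, 0.0742 and 0.0910 in LPS and 0.239 and 0.173 in vehicle libraries. Its partner chain H2-DMb1 had 32.9 and 34.2 CPM in LPS and 48.4 and 41.5 CPM in vehicle (log2 -0.42, edgeR adjusted p = 0.0332). That call was lost under DESeq2 and in the fit of LPS and vehicle alone (log2 -0.41 each). It was also lost without vehicle replicate 1 (log2 -0.29), LPS replicate 1 (-0.37), LPS replicate 2 (-0.44) or either SGA360+LPS replicate (-0.40 each). H2-DMb1 has a close copy, H2-DMb2, so its reads are uncertain. H2-DMa and H2-Eb1 overlap genes annotated on the other strand, and whether counting used strand is not stated.

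Among the 10 genes of the class II molecules and chaperones, 1 rose (H2-Ab1), 2 fell (H2-DMa and H2-DMb1) and 7 did not pass in LPS against vehicle, with a median log2 fold change of 0.10. The 7 include H2-Oa and H2-Ob, chains of the H2-O inhibitor of H2-DM. H2-Ob had 5.05 and 3.83 CPM in LPS and 9.95 and 4.06 CPM in vehicle.

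Costimulatory Cd80 (16:38458933-38486932, plus strand) had 19.3 and 19.6 CPM in SGA360+LPS, 19.3 and 21.2 CPM in LPS and 11.96 and 7.70 CPM in vehicle libraries. All LPS-treated libraries lay above both vehicle libraries, and Cd80 rose in LPS against vehicle (log2 1.05, SE 0.21, edgeR adjusted p = 0.00353). Cd86 (16:36603869-36666077, minus strand), which binds the same T cell receptors, had 30.9 and 32.5 CPM in SGA360+LPS, 33.1 and 35.5 CPM in LPS and 17.8 and 21.0 CPM in vehicle libraries. It too was higher in each LPS-treated library than in either vehicle library (log2 0.82, SE 0.14, edgeR adjusted p = 0.00131). Cd86 over Cd80 was 1.60 and 1.66 in SGA360+LPS and 1.72 and 1.68 in LPS, within the 1.49 and 2.73 of the vehicle libraries. Without vehicle replicate 1 the log2 fold change of Cd80 was 1.41, and without vehicle replicate 2 it was 0.78, both past the threshold.

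Coinhibitory Cd274 (19:29367438-29388094, plus strand), whose promoter is shown above, had 620 and 636 CPM in SGA360+LPS, 642 and 648 CPM in LPS and 115 and 127 CPM in vehicle libraries. The groups were far apart. Its mean was 645 ± 4.78 CPM in LPS and 121 ± 7.85 CPM in vehicle (SD, n = 2 each), a 5.33-fold rise (log2 2.41, SE 0.07, edgeR adjusted p = 3.08e-09). Cd274 over Cd86 was 20.1 and 19.6 in SGA360+LPS, 19.4 and 18.2 in LPS and 6.50 and 6.02 in vehicle libraries, so the ratio of the inhibitory to the costimulatory ligand was higher in every LPS-treated library than in either vehicle library. Per kilobase of exon, Cd274 stood at 177 ± 1.31 CPM per kb in LPS, above H2-Eb1 at 93.3 CPM per kb, and at 33.2 ± 2.15 CPM per kb in vehicle, below H2-Eb1 at 88.5 CPM per kb. Cd80 and Cd86 were lower on this scale, at 11.9 and 13.5 CPM per kb in LPS and 5.76 and 7.61 CPM per kb in vehicle. Cd274 overlaps a gene annotated on the other strand.

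**Figure D3:**
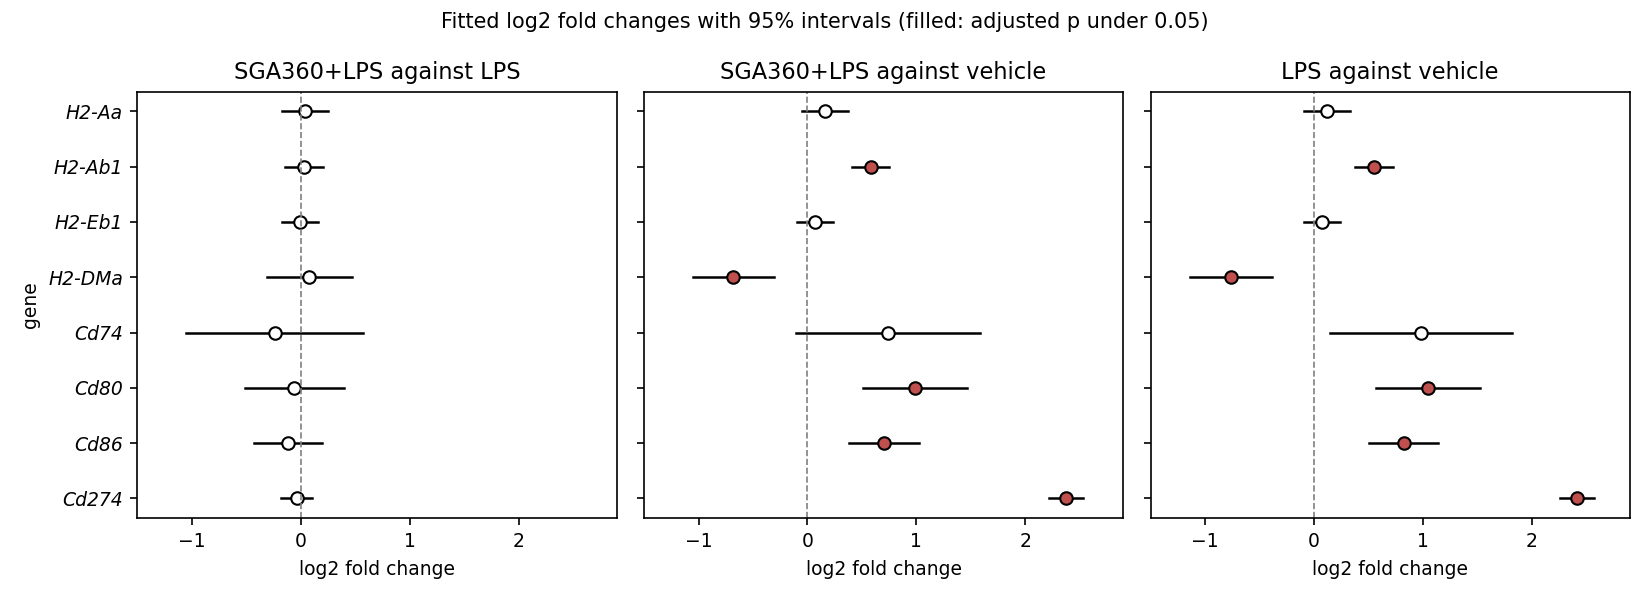
Fitted log2 fold changes (horizontal axes) of the 8 tested genes (vertical axis) in SGA360+LPS against LPS, SGA360+LPS against vehicle and LPS against vehicle; points are estimates, lines 95% intervals, and filled points passed an adjusted p of 0.05. All intervals in SGA360+LPS against LPS include 0, and 5 of the 8 points are filled in each comparison with vehicle.

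Reads for the remaining members were few and rest on how reads shared by several transcripts were counted, which no source used here states. Over the whole table, 1.87% of counts fell on the 5639 symbols with several transcript rows; 51.0% of these symbols, and 37.1% of symbols with 1 row, had no count in any library. The 5 rows of Cd40 (2:165055636-165071654, plus strand) held 0 counts in all 6 libraries. Those of Ciita (16:10480072-10527640, plus strand) held 2 counts in all, both in LPS replicate 2. These rows do not measure either gene, so no statement on their expression follows, and neither was tested.

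Cd74, the invariant chain, has 2 rows on chromosome 18 (60803849-60812652, plus strand), and all its counts were on 1 of them, NM_001042605. That transcript holds 192 exonic bases, the whole of exon 7 of its 9, that the other, NM_010545, lacks; this exon belongs to the longer p41 form. The counts were 116 and 120 in SGA360+LPS, 140 and 135 in LPS and 38 and 120 in vehicle libraries, or 14.7 and 13.4 CPM in SGA360+LPS, 18.6 and 14.8 CPM in LPS and 4.25 and 12.5 CPM in vehicle. The vehicle libraries differed from each other by more than the LPS-treated ones did from vehicle replicate 2. The log2 fold change in LPS against vehicle was 0.98 with an interval of 0.14 to 1.82 (edgeR adjusted p = 0.0666). It was 0.43 without vehicle replicate 1 (edgeR adjusted p = 0.0846) and 1.98 without vehicle replicate 2 (edgeR adjusted p = 4.15e-06). Such counts may cover only reads specific to that isoform, so the level is not comparable with those of the chain genes.

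Genes that work with the members were counted by list, each for LPS against vehicle and beside the 19.4% of all genes that rose and 17.0% that fell. Of 8 tested genes of class II antigen processing (16 in the table, 8 not tested), 0 rose and 5 fell, with a median log2 fold change of -0.26. They were Lgmn (log2 -0.90), a protease that cleaves the invariant chain and antigens, Ifi30 (-0.61), the lysosomal thiol reductase that unfolds antigens, and the cathepsins Ctsd (-0.43), Ctsb (-0.29) and Ctsl (-0.22). Lgmn had 1257 and 1294 CPM in SGA360+LPS, 1194 and 1270 CPM in LPS and 2264 and 2318 CPM in vehicle libraries. Ctss, a main invariant chain protease of macrophages, has 2 rows with 0 counts and is not measured here. Without vehicle replicate 1, 5 of the 8 fell, and without LPS replicate 1 Ctsl did not pass (log2 -0.16, edgeR adjusted p = 0.149).

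In the class II transcription list (18 in the table, 8 not tested), 4 of 10 tested genes rose and 1 fell, with a median of -0.03. The 4 were Prdm1 (log2 2.68), which encodes a repressor known to act on Ciita, Nlrc5 (2.07), the coactivator of class I genes, Rfx5 (1.26), a subunit of the RFX complex that binds the X box, and Spi1 (1.19), the myeloid factor PU.1. Rfx5 had 29.1 and 26.2 CPM in SGA360+LPS, 30.3 and 27.3 CPM in LPS and 7.93 and 16.03 CPM in vehicle libraries. Another subunit, Rfxap, had 21.8 and 20.2 CPM in SGA360+LPS, 18.0 and 15.0 CPM in LPS and 32.6 and 21.7 CPM in vehicle libraries (log2 in LPS against vehicle -0.73, edgeR adjusted p = 0.0204), and it did not pass without vehicle replicate 1 (log2 -0.39), LPS replicate 1 (-0.83) or LPS replicate 2 (-0.58). The other subunit, Rfxank, has 2 rows with 0 counts.

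Of the interferon gamma signalling genes that act on Ciita (15 in the table, 7 not tested), 4 of 8 tested rose and 1 fell, with a median of 0.47. Socs3, a feedback inhibitor of cytokine receptors, rose by 2.92 on the log2 scale and Stat2 by 1.53. Of the receptor chains, Ifngr2 was 312 and 300.3 CPM in LPS and 223 and 207 CPM in vehicle (log2 0.51), and Ifngr1 was 154 and 158 CPM in LPS and 179 and 187 CPM in vehicle (log2 -0.23, edgeR adjusted p = 0.033). The Ifngr1 call was lost under DESeq2, with no filter, in the fit of LPS and vehicle alone and without any single library other than vehicle replicate 1, at log2 values of -0.18 to -0.23. Jak1, the kinase bound to Ifngr1, rose by 0.42 on the log2 scale. Without vehicle replicate 1, 5 of 9 tested genes of this list rose and 2 fell.

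Of the costimulatory ligands and adhesion molecules, a list that includes Cd80 and Cd86, 18 were in the table and 8 were not tested. Among the 10 tested, 9 rose and 0 fell, with a median log2 fold change of 3.26. Icosl, the ligand of ICOS, had 176 and 184 CPM in SGA360+LPS, 223 and 212 CPM in LPS and 7.93 and 9.57 CPM in vehicle libraries (log2 in LPS against vehicle 4.63). Vehicle was far below every LPS-treated library. Tnfsf9 (4-1BB ligand) rose by 3.79 on the log2 scale. Tnfsf15, with 0 and 5 counts in vehicle, and Slamf1, with 0 and 4, also rose. Tnfsf15 and Slamf1 passed the filter on low counts only through the LPS-treated libraries, so a rise was the only call open to them. The 9 rises and the median include both, and their rises are no support for the list. Cd48 did not pass (log2 -0.13). Of the coinhibitory ligands, 14 were in the table and 6 were not tested. Among the 8 tested, 4 rose and 0 fell, with a median of 0.84: Cd274, Tnfrsf14 (1.95), the receptor HVEM, Cd200 (1.16) and Pvr (1.02). In CD40 signalling, downstream of the receptor that could not be measured, 14 genes were in the table. Of these, 5 had few or no counts and were not tested: Traf2, Traf3, Traf6, Birc2 and Relb. Among the 9 tested, 8 rose and 0 fell, with a median of 1.47, including the adaptor Traf1 (4.19), Nfkb1 (2.67), Birc3 (2.28) and Rel (1.68). The 8 include Nfkb2 (1.47), with 31 and 34 counts in LPS and 12 and 14 in vehicle over 3 rows, and its call was lost under DESeq2, in the fit of LPS and vehicle alone, without any single LPS or SGA360+LPS library (log2 1.42 to 1.56) and with its highest row alone (0.74). In that fit of LPS and vehicle alone, 7 of 9 rose. Slamf1 did not pass without LPS replicate 2 (3.89). The CD40 signalling genes also act in Toll-like receptor and TNF signalling. Without vehicle replicate 1 the costimulatory list had 9 rises of 11 tested, the coinhibitory list 4 of 9 and the CD40 list 8 of 9.

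**Figure D4:**
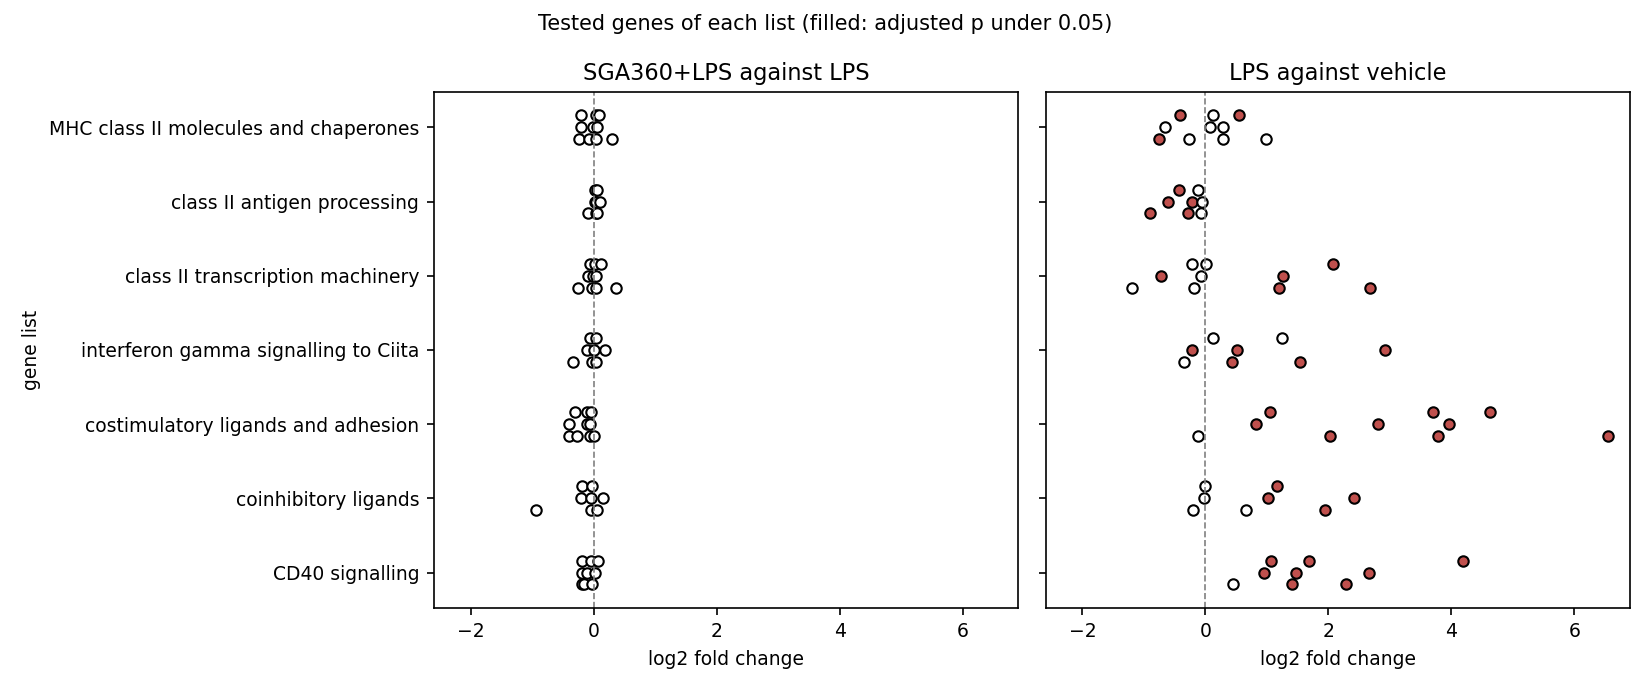
Log2 fold changes (horizontal axes) of the tested genes of each list (vertical axis) in SGA360+LPS against LPS and in LPS against vehicle; each point is a gene, spread vertically for legibility, and filled points passed an adjusted p of 0.05. In LPS against vehicle 9 of 10 costimulatory genes are filled to the right of 0 and 5 of 8 antigen processing genes to its left. The 9 include Tnfsf15 and Slamf1, which passed the filter on low counts only through LPS-treated libraries. No point is filled in SGA360+LPS against LPS.

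SGA360+LPS against vehicle gave the same calls for the members, 4 higher (17.9% of all genes rose) and 1 lower (15.2% of all genes fell), with a median log2 fold change of 0.64 beside -0.01 over all genes. This comparison shares its vehicle libraries with the preceding one. Cd274 rose by 2.38 on the log2 scale (SE 0.07, edgeR adjusted p = 3.53e-09), Cd80 by 0.99 (SE 0.21, adjusted p = 0.00541), Cd86 by 0.71 (SE 0.14, adjusted p = 0.00367) and H2-Ab1 by 0.58 (SE 0.08, adjusted p = 0.000247). H2-DMa fell by 0.68 (SE 0.17, edgeR adjusted p = 0.0108), and did not pass without SGA360+LPS replicate 2 (log2 -0.55, adjusted p = 0.133). H2-Aa, at 0.16, H2-Eb1, at 0.07, and Cd74, at 0.74, did not pass. By list, 1 class II gene rose and 1 fell, 0 processing genes rose and 5 fell, and 4 transcription genes rose and 0 fell. In interferon gamma signalling 4 genes rose and 1 fell, and 9 costimulatory, 4 coinhibitory and 8 CD40 signalling genes rose and 0 fell. The 9 again include Tnfsf15 and Slamf1, for which a rise was the only call open. Without vehicle replicate 1, 4 processing genes fell, with Ctsl lost (log2 -0.16), 4 of 9 interferon gamma signalling genes rose and 2 fell, 9 of 11 costimulatory genes rose and 1 fell, and 4 of 9 coinhibitory genes rose and 1 fell (Cd276, log2 -0.58); the other counts were the same. Calls were lost without SGA360+LPS replicate 1 for Ctsl (-0.14), Ctsb (-0.20), Ifngr1 (-0.24), Slamf1 (3.65) and Nfkb2 (1.28), and without SGA360+LPS replicate 2 for Ctsl (-0.21), Ifngr1 (-0.30), Slamf1 (3.50) and Nfkb2 (1.71). Without either LPS library, Ctsl (-0.17) and Nfkb2 (1.51) did not pass.

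SGA360+LPS against LPS asks whether the aryl hydrocarbon receptor ligand changed these genes under LPS. Of the 8 members tested, 0 passed edgeR's quasi-likelihood test, where 0.0746% of all genes (7 of 9389) did; 0 had an unadjusted p under 0.05. DESeq2 gave an adjusted p for 2 of them, Cd274 (0.926) and H2-Ab1 (0.957), and none for the other 6. The intervals bound the difference rather than show equality: the log2 fold change was -0.04 (-0.18 to 0.11) for Cd274, 0.03 (-0.14 to 0.20) for H2-Ab1, -0.01 (-0.17 to 0.16) for H2-Eb1 and 0.04 (-0.17 to 0.25) for H2-Aa. They were wider for the less abundant genes, at -0.12 (-0.43 to 0.19) for Cd86, -0.06 (-0.51 to 0.39) for Cd80, 0.08 (-0.31 to 0.47) for H2-DMa and -0.24 (-1.05 to 0.57) for Cd74. With 2 libraries a group, the values inside an interval are not told apart. The intervals use the replicate spread fitted over all 6 libraries, vehicle included. This spread (edgeR's biological coefficient of variation) was 0.0951, and 0.0540 when SGA360+LPS and LPS were fitted alone. In that fit 821 of 9094 genes had an unadjusted p under 0.05, where 276 of 9389 did in the main model. Of the 8 members, 0 did in either fit.

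None of the tested genes in the 7 lists passed in SGA360+LPS against LPS either. In the costimulatory list, 7 of 10 tested genes lay lower in both SGA360+LPS libraries than in either LPS library and 0 lay higher, where 19.6% of all genes lay lower and 19.9% higher: Icosl, Tnfsf9, Tnfsf15, Slamf1, Icam1, Vcam1 and Cd86. In CD40 signalling 6 of 9 lay lower and 0 higher, and of the members 3 of 8 lay lower (Cd74, Cd86 and Cd274) and 0 higher. For Cd74 this rests on 14.73 CPM in SGA360+LPS replicate 1 and 14.76 CPM in LPS replicate 2, values too close to tell apart. The other lists were more mixed. Among class II molecules 2 of 10 lay lower (Cd74 again, and H2-Eb2) and 0 higher, and in antigen processing 1 of 8 lay lower and 3 higher. The transcription list had 1 of 10 lower and 2 higher. The interferon gamma and coinhibitory lists each had 3 of 8 lower and 1 higher. These counts were made after the values were seen and carry no test. Icosl, with the values given above, differed by -0.27 (unadjusted p = 0.00728, edgeR adjusted p = 1.00), and Tnfsf9 had 56.4 and 57.8 CPM in SGA360+LPS and 66.6 and 74.8 CPM in LPS (log2 -0.31). Tnfsf15 had 19.9 CPM in both SGA360+LPS libraries and 27.1 and 25.7 CPM in LPS (log2 -0.40). Fitted on these 4 libraries alone, the edgeR adjusted p was 0.221 for Icosl, 0.309 for Tnfsf9 and 0.332 for Tnfsf15. Socs3 had 590.2 and 505 CPM in SGA360+LPS and 718 and 664 CPM in LPS (log2 -0.34); edgeR's adjusted p was 1.00, and it passed under edgeR with no filter on low counts (adjusted p = 0.0139) and under DESeq2 (0.0278).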

How the data were processed

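The values used are whole-number read counts, in 1 table the authors deposited: 34751 rows, 1 per transcript, carrying a gene symbol, RefSeq name, exon length in bases and position. The submitters' processing notes list TopHat2 2.0.13 and HTSeq 0.5.4p3, with build mm10. Strand setting, annotation version and the handling of reads that several transcripts share: not given in the sources used here. Positions are the deposited ones plus 1 base at the start. All sample columns matched a label, and 0 were left unused.

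Rows were summed per symbol. After filterByExpr (minimum count 10) and TMM scaling, all 6 libraries entered 1 model with a term per group, tested by the quasi-likelihood test of edgeR 4.0.16 (R 4.3.3). Benjamini-Hochberg adjustment covered the 9389 genes tested, with a threshold of 0.05. SE comes from the log2 fold change and its F statistic (absolute value over root F). CPM per kb divides CPM by the deposited exon length, for symbols with 1 row. Intervals cover 95%. Floors are 3 counts and cover counting error only: without molecular identifiers, reads are not independent molecules. Replicates did not agree within sampling noise (mean chi-square per gene 4.14 in SGA360+LPS, 6.17 in LPS and 44.2 in vehicle), so none was counted as a duplicate. The scripts were tested on simulated data.

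The members and gene lists were chosen with earlier results of these data known. All members are named. Of each list, up to 4 called genes with the largest change and a mean of at least 1 CPM are named, plus genes of the same complex. The genes named in SGA360+LPS against LPS other than members, Cd48, Ctss, Ctsl, Nfkb2, Cd276, Zbtb46, Flt3 and the genes most like Cd274 and H2-Ab1 were added after their values were seen. Alternatives were DESeq2 1.42.0 and its size factors, other filters and thresholds, each comparison fitted alone, a replicate block, the highest row per symbol, and leaving out each library.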

Additional observations from a re-analysis of the deposited data

How the results depend on the processing

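The number of members called was 5 in LPS against vehicle and stayed between 4 and 6 over 14 alternatives. In SGA360+LPS against vehicle it was 5, with 4 to 6, and in SGA360+LPS against LPS it was 0 in every alternative, though DESeq2 gave an adjusted p for only 2 members there. Leaving out 1 library gave 4 to 6, 4 to 6 and 0 calls in these comparisons. Cd74 was called in LPS against vehicle by DESeq2 (log2 1.00), with no filter on low counts (1.01) and without vehicle replicate 2 (1.98). In SGA360+LPS against vehicle it was called with no filter and without vehicle replicate 2 (1.74). Over all genes, 3413 were called in LPS against vehicle (2091 to 5494 over the alternatives), 3107 in SGA360+LPS against vehicle (1831 to 5315) and 7 in SGA360+LPS against LPS (0 to 17). The ends come from leaving out libraries, except the 17, which had no filter on low counts. At an adjusted p under 0.01 these counts were 2216, 2050 and 4, and 12 genes were called in SGA360+LPS against LPS fitted alone. The cause was not tested.

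The labels tie replicate numbers to no animal, batch or day. Deviations of same-numbered libraries correlated at 0.163 for SGA360+LPS and LPS, 0.0145 for SGA360+LPS and vehicle and -0.00660 for LPS and vehicle over 9389 genes. The main model did not take the numbers to pair the samples. Whether SGA360+LPS and LPS libraries of the same number were handled together was not tested. With a replicate block, 5, 5 and 0 members and 3434, 3136 and 5 genes were called. At 38 to 354 counts per library, Cd80, Cd74 and H2-DMa have the widest intervals, and 2 libraries a group limit all of them.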

Other observations

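Genes whose pattern over the 6 libraries was most like that of a member were ranked by the root mean square difference of log2 CPM, centred per gene, among 6962 candidates. For Cd274 they were Gsap (0.03), Psd (0.07) and Cybb (0.08). Cybb, the catalytic subunit of the phagocyte NADPH oxidase, had 4182 and 4251 CPM in SGA360+LPS, 4713 and 4797 CPM in LPS and 889.6 and 958 CPM in vehicle libraries. For H2-Ab1 they were Katna1 (0.03), Clk3 (0.04) and Nop56 (0.04). For Cd74, among 6963 candidates, they were Zfp850 (0.15), Fam109a (0.16) and Top1mt (0.17), which like Cd74 were lowest in vehicle replicate 1; Cd40 had no reads to compare. Top1mt had 12.6 and 12.2 CPM in SGA360+LPS, 13.8 and 10.2 CPM in LPS and 3.91 and 12.1 CPM in vehicle libraries.

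The ratio of H2-Ab1 to H2-Aa counts also differed between replicates of a group. It was 1.26 and 1.27 in replicate 1 of SGA360+LPS and LPS and 1.03 and 1.04 in replicate 2 of these groups, while H2-Ab1 over H2-Eb1 was 1.60 to 1.69 in the same 4 libraries. The spread in the first ratio came with both genes, in opposite directions. H2-Aa had 212 and 205 CPM in the replicates numbered 1 and 241 and 235 CPM in those numbered 2. H2-Ab1 had 267 and 262 CPM in the replicates numbered 1 and 248 and 243 CPM in those numbered 2. H2-Eb1 was lower in the latter as well, at 153 and 152 CPM against 158 and 161 CPM. In vehicle H2-Aa was higher in replicate 1, at 213 CPM against 192 CPM.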
